A study of Cicer arietinum with 18 samples.

Results

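The features described here are those array features whose identifiers are LS followed by digits, chosen by identifier and not by any measured value. They make up 21.8% of the 715 features, and the rest are 442 features with U identifiers and 117 with CA identifiers. The files used here do not pair identifiers with genes, and 0 of the LS identifiers matched the chickpea reference gene table, so features are reported by identifier and no gene, organism or sequence is assigned to them. Arrays of the group that made these data are known to hold chickpea cDNAs together with grasspea and lentil sequences, but the files used here do not say which identifiers belong to which.

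RNA came from pooled stem and leaf of chickpea (Cicer arietinum) shoots, from seedlings aged 14 days, of the genotypes FLIP94-508C, ICC3996 and Lasseter. Plants received salicylic acid (SA), methyl jasmonate (MeJA) or aminocyclopropane carboxylic acid (ACC), and treated RNA was hybridised with untreated control RNA of the same genotype on a spotted 2-colour cDNA array. Harvest was 3 h or 27 h after treatment, which gives 18 samples, 1 for each genotype, compound and time. Each sample's value is the authors' mean over 3 biological replications with dye swaps, so a single sample carries no error, and for each compound and time the 3 genotypes were taken as replicates.

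SA is the hormone through which plants establish systemic acquired resistance, and it accumulates after attack by many biotrophic pathogens. MeJA is the methyl ester of jasmonic acid, the hormone of wounding and of defence against chewing insects and necrotrophs. ACC is the direct precursor of ethylene, which often acts together with jasmonate in plant defence.

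Values are log2 ratios, read here as treated over control. This direction is likely, since the labels give channel 1 to the control and channel 2 to the treated plants, but it is not stated for the deposited values. The authors took the logarithm after adding a shift of unstated size, which can pull the ratios of dim spots towards 0. In whole shoots, less RNA per cell and fewer cells with that RNA cannot be told apart, and the tissue label could not be checked against marker genes. Over the 18 samples the median ratio of the LS features lay between -0.64 and 0.061, and that of the CA and U features together between -0.31 and 0.016. The spread of the tested features differed between samples, with a median absolute deviation from 0.19 in FLIP94-508C after 3 h of MeJA to 1.16 in FLIP94-508C after 3 h of ACC.

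LS features were measured less often than the other features. Between 52.6% and 85.3% of the LS features had a value in a sample (median 70.5%), against 82.9% to 95.7% of the CA features (median 92.3%) and 76.0% to 91.0% of the U features (median 84.0%). The LS share was below that of the CA and U features together in 18 of 18 samples, with a mean difference of -14.6 percentage points (SD 6.23, n = 18 samples) and single differences from -28.3 to -5.26 points. The lowest and the highest LS share were both found 3 h after ACC, in FLIP94-508C and in ICC3996. A feature without a value in a sample was omitted by the authors there, and the single spots were not used here.

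**Figure D1:**
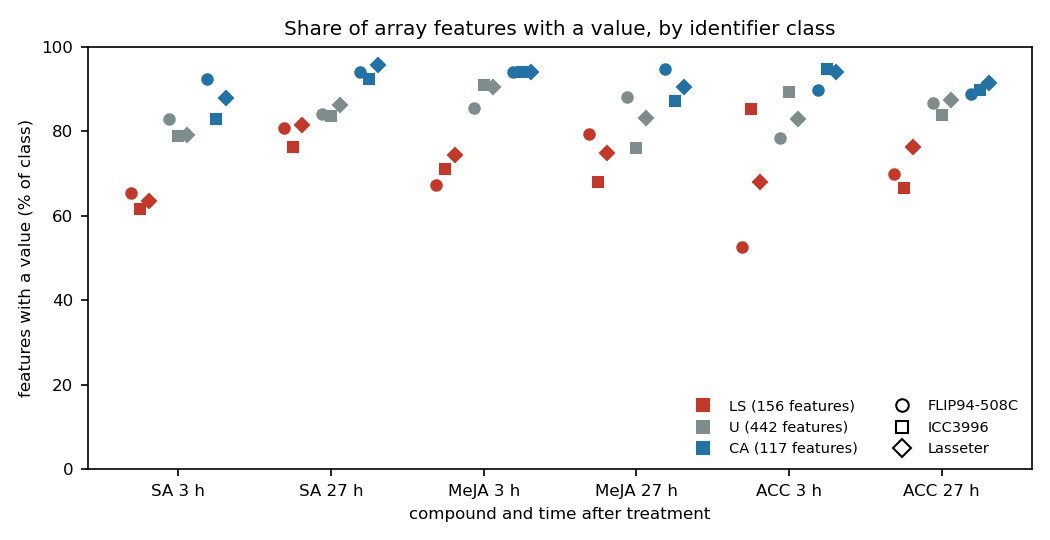
Share of features with a value (percent of the class, vertical axis) for LS, U and CA features in each compound and time (horizontal axis), with 1 point for each genotype. The LS points lie below the U and CA points of the same sample in all 18 samples, and run from 52.6% to 85.3%.

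In the SA samples the share of LS features with a value was larger at 27 h than at 3 h in each genotype. After 3 h of SA it was 65.4% for FLIP94-508C, 61.5% for ICC3996 and 63.5% for Lasseter. After 27 h it was 80.8%, 76.3% and 81.4%, so the samples of the 2 times did not overlap. The share of CA and U features with a value was also larger at 27 h in each genotype, at 86.2%, 85.5% and 88.2% against 85.0%, 79.8% and 81.0% at 3 h. With SA, 44 LS features (28.2%) had a value in more samples at 27 h than at 3 h and 3 (1.92%) in fewer, while of the CA and U features 70 (12.5%) had more and 19 (3.40%) fewer. In the LS class 10 features (6.41%) had no value in any genotype at 3 h and a value in all 3 at 27 h, and 0 showed the opposite. Of the 559 CA and U features, 8 (1.43%) showed the first pattern and 0 the second.

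For LS features the counts were more even with the other compounds. With MeJA, 26 LS features (16.7%) had a value in more samples at 27 h and 19 (12.2%) in fewer. Among the CA and U features 23 (4.11%) had more and 102 (18.2%) fewer. With MeJA, 5 LS features (3.21%) went from no sample at 3 h to all 3 at 27 h, where 3 CA and U features (0.537%) did. LS0786, singled out after its values were seen, went the other way, as did 1 CA or U feature. LS0786 had values in no other sample, with log2 ratios of -0.21, -0.0076 and -0.019 at 3 h. With ACC, 37 LS features (23.7%) had a value in more samples at 27 h and 24 (15.4%) in fewer. None (0) moved between none and all 3 genotypes in either direction. Of the CA and U features, 45 (8.05%) had a value in more samples at 27 h of ACC and 30 (5.37%) in fewer. From none to all 3 genotypes went 2 of them, and 1 went the other way. Whether a value is missing because a spot was dim or because it was damaged cannot be told from the deposited means.

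Across the whole set, 67 LS features (42.9%) had a value in all 18 samples, 46 in 9 to 17 samples, 38 in 1 to 8 and 5 in none. The share with all 18 values was 76.9% for the CA features and 64.9% for the U features. Ratios were larger among incompletely measured features in each class. Of the LS values, 37.1% were at least 2-fold from control among features with 1 to 8 values, 31.7% among those with 9 to 17 and 10.1% among those with all 18. For features with all 18 values the shares were 9.63% in the CA class and 10.5% in the U class. The part of weak signal in the large ratios of incomplete features was not tested.

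**Figure D2:**
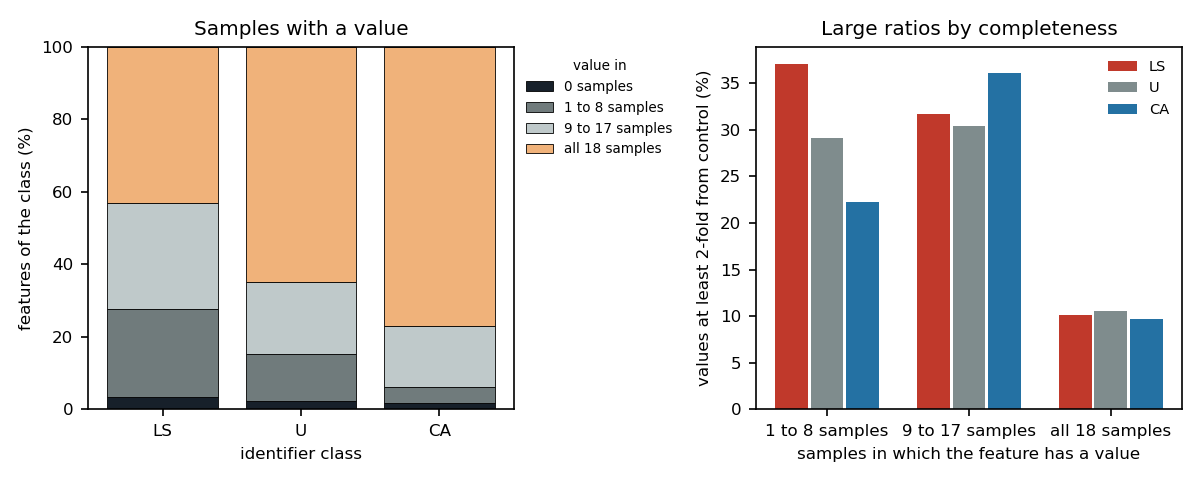
Left, percent of the features of each identifier class with a value in 0, 1 to 8, 9 to 17 or all 18 samples. Right, percent of their values that were at least 2-fold from control, by the number of samples with a value (1 bar per class). Complete features made up 42.9% of the LS class, and 10.1% of their values were at least 2-fold from control.

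Because of this, shares of large ratios are given for all measured LS features and for the complete ones. A ratio at least 2-fold from control was found for 0.806% to 41.5% of the measured LS features of a sample (median 22.1%), and for 0.677% to 40.8% of all measured features (median 14.3%). The mean difference from the CA and U features was 4.59 percentage points (SD 6.04, n = 18 samples), with LS higher in 15 of 18 samples. Among features with all 18 values the mean difference was -0.20 points (SD 4.56, n = 18 samples). The sign of the mean difference thus turned when incompletely measured features were left out.

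After SA, LS features at least 2-fold higher than control were found at 27 h in similar shares in the 3 genotypes, 8.73% for FLIP94-508C, 10.1% for ICC3996 and 11.8% for Lasseter. Over all features measured in these samples the shares were 4.93%, 4.36% and 5.16%, and over the CA and U features alone 3.94%, 2.93% and 3.45%. At 3 h the LS shares were 7.84%, 0% and 14.1%, so that ICC3996 had none among 96 measured features (all features: 1.73%, 0.369% and 5.98%). Among complete LS features the 27 h shares were 1.49%, 0% and 2.99%. Those of the complete CA and U features were 2.12%, 0.531% and 3.18%, so the LS share was the lower in each genotype.

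In the other direction, LS features at least 2-fold lower than control made up 12.7%, 10.4% and 17.2% at 3 h of SA in FLIP94-508C, ICC3996 and Lasseter (all features: 7.97%, 9.41% and 22.1%). At 27 h of SA they were 29 of 126, 25 of 119 and 15 of 127 measured LS features (all features: 23.8%, 12.6% and 18.5%), as large a share as the higher ones in Lasseter and a larger one in the others. Against the CA and U features, the LS share of lower ratios was larger in 3 SA samples and smaller in the other 3.

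After ACC, LS features at least 2-fold lower than control made up 40.2%, 4.51% and 24.5% of those measured at 3 h in FLIP94-508C, ICC3996 and Lasseter (all features: 30.3%, 4.23% and 16.5%). At 27 h they made up 30.3%, 27.9% and 29.4% (all features: 19.8%, 21.9% and 20.2%). The LS share was above that of the CA and U features in 6 of 6 ACC samples, by 0.361 to 12.8 percentage points. Among complete features the LS shares at 27 h were 14.9%, 13.4% and 13.4%, against 11.4%, 13.8% and 9.81% of the CA and U features. LS features at least 2-fold higher than control were 1 of 82, 2 of 133 and 2 of 106 measured at 3 h of ACC (all features: 10.5%, 1.41% and 3.26%) and made up 1.83%, 11.5% and 3.36% at 27 h (all features: 3.36%, 12.9% and 3.43%). This higher share was below that of the CA and U features in 5 of 6 ACC samples.

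After MeJA, ratios at least 2-fold from control in either direction were found for 4.76%, 9.01% and 4.31% of the LS features at 3 h (all features: 1.35%, 3.21% and 2.08%) and for 0.806%, 5.66% and 0.855% at 27 h (all features: 1.28%, 11.8% and 0.677%).

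**Figure D3:**
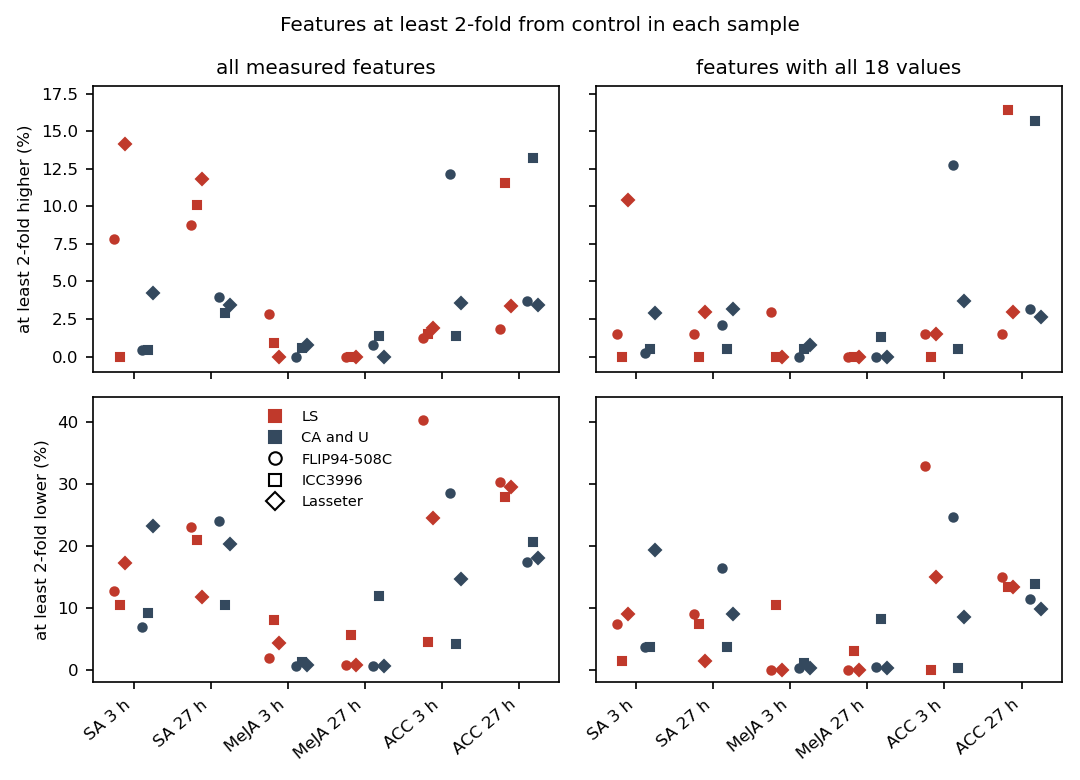
Percent of measured features at least 2-fold higher (top) or lower (bottom) than control in each compound and time, for LS features and for CA and U features, with 1 point for each genotype. Left, all measured features. Right, features with a value in all 18 samples. From left to right, the higher LS points at 27 h of SA drop from between 8.73% and 11.8% to between 0% and 2.99%. The CA and U points on the right lie between 0.531% and 3.18% there.

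A response was tested with limma as the mean log2 ratio over the 3 genotypes against 0, in 1 fit across all features with at least 2 values in each of the 6 groups of compound and time. This left 523 features, of which 88 were LS features (56.4% of the class, against 85.5% of the CA and 75.8% of the U features). The other 68 LS features were outside this fit, so counts below do not describe the whole class, and a largest rise, fall or difference named below is the largest among the 88. Features outside the fit were at times farther from control, such as LS0459, singled out after its values were seen, with ratios of 3.05, 0.78 and 3.73 at 3 h of SA. The median residual SD of the tested LS features was 0.57, against 0.45 for CA and 0.47 for U features. The p-values were adjusted by the Benjamini-Hochberg method over all 523 features, with a threshold of 0.05. They rest on the spread left after the group means and the genotype term, measurement error included. For each feature all 6 groups share 1 estimate of this spread, which limma moderates over the tested features. A p-value for 1 compound and time therefore also depends on the scatter in the other groups. The LS features were 16.8% of the features tested, and the counts below are read against the share of all tested features that passed.

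**Figure D4:**
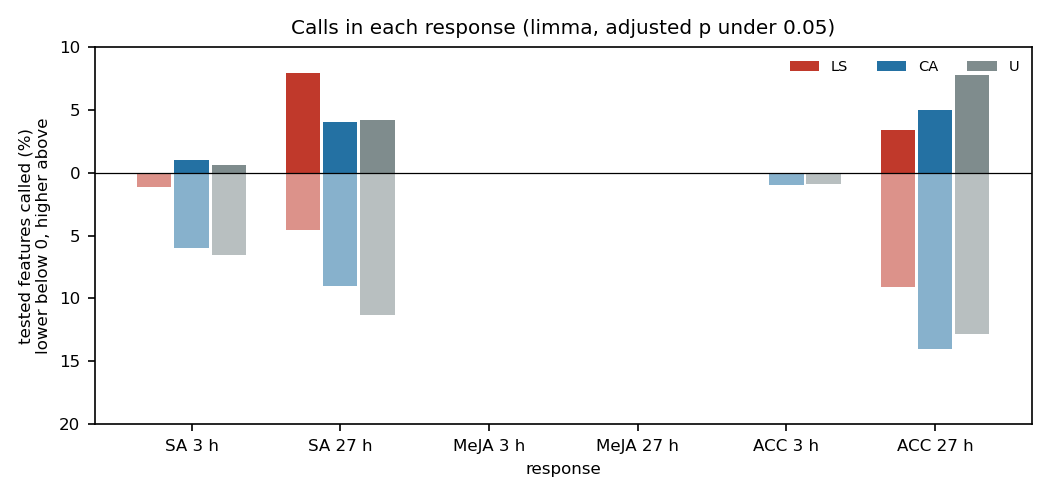
Percent of the tested LS (88), CA (100) and U (335) features that passed limma's test in each response, with higher features above 0 and lower features below 0. LS features passed after SA at both times and after ACC at 27 h, and none passed after MeJA or after 3 h of ACC.

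After 3 h of SA, 1 of 88 LS features passed, a lower one, where 6.12% of all tested features did and 5.54% were lower. LS0159 had ratios of -1.48 for FLIP94-508C, -0.60 for ICC3996 and -4.87 for Lasseter. All genotypes were below control, and Lasseter was far below the others. The mean was -2.32 (SE 0.57, adjusted p = 0.0357, limma). Without the Lasseter sample LS0159 had a mean of -1.01 and did not pass (adjusted p = 0.438, limma), and no LS feature did. Without the FLIP94-508C sample 4 LS features passed and without the ICC3996 sample 2, and without the genotype term 3 passed.

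The largest rise among the tested LS features whose sign was shared by all genotypes at 3 h of SA was that of LS0341, which did not pass (adjusted p = 0.0534, limma). Its ratios were 2.18, 0.67 and 1.76 in FLIP94-508C, ICC3996 and Lasseter, a mean of 1.54 (SE 0.43). LS0001, singled out after its values were seen, was the LS feature at least 2-fold lower in all 3 genotypes at this time, where 1.18% of all features measured in the 3 genotypes were. Its ratios were -1.27, -1.18 and -1.07, and 0 LS features were at least 2-fold higher in all 3.

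After 27 h of SA, 11 of 88 LS features passed, or 12.5%, where 14.5% of all tested features did. Of these 7 were higher and 4 lower, while over all tested features 4.78% were higher and 9.75% lower. This excess of rises depended on the filter. With no filter, 29 of 138 LS features passed, 11 higher and 18 lower. The 7 higher ones were above control in each genotype, and 3 of the 4 lower ones were below control in each. The other lower one, LS1003, had no value for FLIP94-508C and ratios of -3.55 for ICC3996 and -1.70 for Lasseter. Its estimate was the largest fall that passed, at -2.67 (SE 0.59, adjusted p = 0.0133, limma). The median ratio of the 88 LS features was 0.16, against -0.12 over all 523. Over all measured LS features the median was below 0 in each genotype. It was -0.43 for FLIP94-508C, -0.016 for ICC3996 and -0.071 for Lasseter, against -0.25, -0.084 and -0.22 for the CA and U features.

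Among the LS features that passed, LS0081 showed the largest rise at 27 h of SA, with ratios of 2.36 for FLIP94-508C, 1.49 for ICC3996 and 3.61 for Lasseter. The mean was 2.49 (SE 0.45, 5.60-fold, adjusted p = 0.00592, limma). At 3 h it had been below control in the genotypes that had a value, -1.03 in FLIP94-508C and -1.14 in ICC3996. LS0688 had ratios of 1.81, 1.82 and 3.58 at 27 h, a mean of 2.40 (SE 0.48, adjusted p = 0.00920, limma). Both were highest in Lasseter, and none of the 27 h SA values of either overlapped its MeJA values, which ran from -1.13 to 1.16 for LS0081 and from -0.90 to 0.65 for LS0688.

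Among the LS features that passed with the same sign in all genotypes, LS0263 had the largest fall at 27 h of SA, with -1.46 for FLIP94-508C, -4.00 for ICC3996 and -0.93 for Lasseter. The mean was -2.13 (SE 0.57, adjusted p = 0.0239, limma), and ICC3996 was far below the others. LS0818 was more even, with ratios of -2.23, -1.32 and -0.66 and a mean of -1.40 (SE 0.25, adjusted p = 0.00500, limma). In the other 15 samples LS0818 lay between -0.60 and 0.80.

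The count at 27 h of SA depended on single samples. It was 1 without the FLIP94-508C sample, 4 without the Lasseter sample and 7 without the ICC3996 sample, and LS0081 did not pass without the first (adjusted p = 0.0548, limma) or the second (adjusted p = 0.0566, limma). LS0688 did not pass without either (adjusted p = 0.0554 and 0.105, limma), LS0263 without FLIP94-508C (adjusted p = 0.0711, limma) or ICC3996 (adjusted p = 0.273, limma), and LS0818 without FLIP94-508C (adjusted p = 0.0762, limma).

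**Figure D5:**
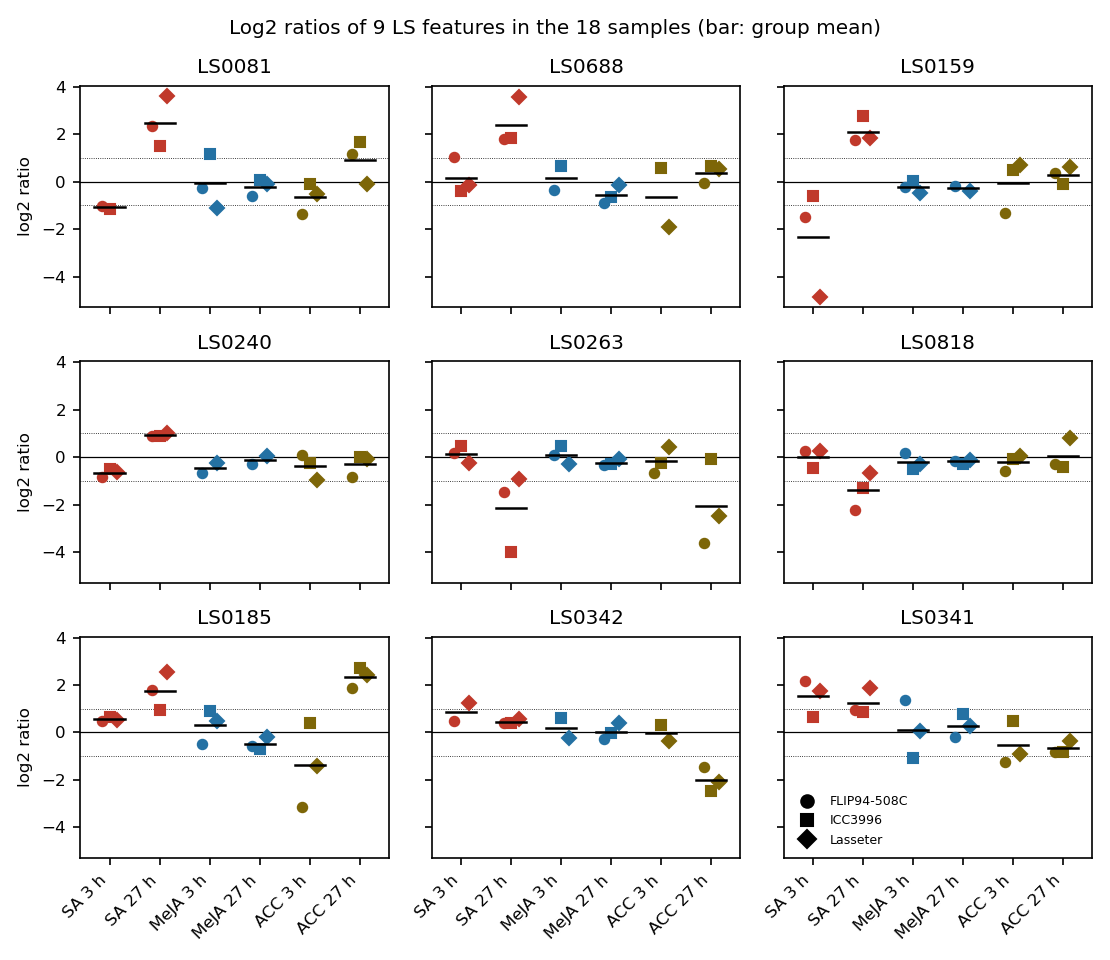
Log2 ratios (vertical axis) of 9 LS features in each compound and time (horizontal axis), with 1 point for each genotype, a bar for the group mean and dotted lines at 2-fold. LS0081, LS0688 and LS0159 lie above 2-fold in all genotypes at 27 h of SA, LS0185 does so at 27 h of ACC, and LS0342 lies below 2-fold in all genotypes at 27 h of ACC.

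Features past 2-fold in the same direction in each genotype form a second count that needs no filter on the other groups. At 27 h of SA, 8 of the 111 LS features measured in all 3 genotypes were at least 2-fold higher in each (7.21%), where 2.47% of all such features were, and 6 of the 456 CA and U features. LS0081 and LS0688 were among the 8, and 2 of the 8 had no value in any genotype at 3 h. None of the 8 was among the 67 features with all 18 values, and 2 of 377 complete CA and U features met the same rule. LS0842, singled out after its values were seen, was the only LS feature at least 2-fold lower in all 3 genotypes, with -1.49, -3.02 and -2.42, where 2.82% of all features were. It had no value at 3 h of SA.

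Directions were set side by side between genotypes. At 27 h of SA, 86 of the 111 LS features measured in all 3 genotypes had the same sign in all (77.5%), against 56.4% of the 456 CA and U features. The mean correlation between pairs of genotypes, across LS features, was 0.66 (114 to 117 features), against 0.58 (461 to 475 features) for the CA and U features. At 3 h of SA it was 0.41 for LS and 0.34 for CA and U features. At 3 h of MeJA and at 3 h of ACC it was 0.035 and 0.061 for LS, against 0.27 and 0.23. At 27 h of ACC the values were close, 0.52 for LS and 0.54 for CA and U features. Features on the same slides share their hybridisation, so these values describe the samples and carry no p.

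Between 3 h and 27 h of SA, 3 of 88 LS features changed, all upwards, where 2.1% of all tested features passed and 1.72% did so upwards. LS0159 moved from -1.48, -0.60 and -4.87 at 3 h to 1.74 for FLIP94-508C, 2.77 for ICC3996 and 1.83 for Lasseter, so that each genotype crossed from below to above control. The mean difference was 4.43 (SE 0.80, adjusted p = 0.0125, limma). LS0240 moved from -0.85, -0.49 and -0.64 at 3 h to 0.89, 0.89 and 1.03 at 27 h. Its mean difference was smaller but more even, at 1.59 (SE 0.31, adjusted p = 0.0215, limma). LS0081, with 2 values at 3 h, also passed, with a difference of 3.63 (SE 0.72, adjusted p = 0.0215, limma).

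The largest fall between the times of SA among tested LS features whose sign was shared by all genotypes was that of LS0263, -2.26, which did not pass (adjusted p = 0.160, limma). The count of 3 became 0 without the 27 h sample of FLIP94-508C or of Lasseter and 5 without the 3 h sample of FLIP94-508C. Without these 27 h samples the adjusted p of LS0159 was 0.0583 and 0.0784 and that of LS0240 was 0.107 and 0.0910 (limma), and without the 3 h Lasseter sample LS0240 had an adjusted p of 0.0740 (limma).

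After MeJA, 0 of 88 LS features passed limma's test at 3 h and 0 at 27 h, where 0% of all tested features passed. At an unadjusted p under 0.05, limma gave 2 LS features at 3 h and 3 at 27 h (all features: 1.91% and 5.16%). The methods' t-test, which the design text names and which was run here over the 3 genotypes, gave 5 and 3 (all features: 13.8% and 9.18%), with 0 after adjustment. The largest values among tested LS features whose sign was shared by all genotypes at 3 h were those of LS0142, with a mean of 0.20, and LS0036, with -1.08 (adjusted p = 0.997 for both, limma). The ratios of LS0036 were -1.78 for FLIP94-508C, -0.89 for ICC3996 and -0.56 for Lasseter.

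At 27 h of MeJA the largest values among tested LS features whose sign was shared by all genotypes were 0.34 for LS0998 (adjusted p = 0.993, limma) and -1.08 for LS0035 (adjusted p = 0.492, limma). LS0035 had ratios of -0.79, -1.70 and -0.75, and ICC3996 was the lowest. At both times of MeJA 0 LS features passed 2-fold in the same direction in each genotype, as for all features (0%). Between 3 h and 27 h of MeJA 0 LS features passed (0% of all tested), with 0 at an unadjusted p under 0.05 by limma (all features: 0.191%) and 4 by the methods' t-test (all features: 4.42%). Among tested LS features whose sign was shared by all genotypes the largest differences were 0.39 for LS0716 and -0.78 for LS0185 (adjusted p = 0.999 for both, limma). When samples were scaled to equal spread, 4 LS features passed at each time, LS0036 (adjusted p = 0.0209, limma) at 3 h and LS0035 (adjusted p = 0.0112, limma) at 27 h among them.

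After 3 h of ACC, 0 of 88 LS features passed limma's test, where 0.765% of all tested features did. At an unadjusted p under 0.05, limma gave 21 (23.9%, against 19.1% of all tested features) and the methods' t-test 3 (all features: 2.1%), with 0 after adjustment. The median LS ratio over the 88 was -0.36, against -0.17 over all 523, and 73 of the 88 means were below 0. Among tested LS features LS0451 had the largest fall with the same sign in all genotypes, with ratios of -4.21 for FLIP94-508C, -0.16 for ICC3996 and -2.40 for Lasseter, and it did not pass (mean -2.26, SE 0.51, adjusted p = 0.0544, limma). LS0493 had the largest such rise, with 1.61, 0.031 and 1.18, and did not pass (mean 0.94, SE 0.36, adjusted p = 0.152, limma).

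In both features the ICC3996 ratio was nearest to 0 while the other genotypes were past 2-fold. The ICC3996 sample at 3 h of ACC also had 4.51% of LS features at least 2-fold lower, against 40.2% and 24.5% in the others. Without this sample 22 LS features passed, LS0451 (adjusted p = 0.000285, limma) and LS0493 (adjusted p = 0.0128, limma) among them. Whether this sample differs by genotype or by its treatment cannot be told apart, since 1 deposited mean stands for each genotype, compound and time. In all 3 genotypes at once, 0 LS features were at least 2-fold higher or lower at 3 h of ACC (all features: 0.191% higher and 0.956% lower).

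After 27 h of ACC, 11 of 88 LS features passed, or 12.5%, where 18.9% of all tested features did. Of these 3 were higher and 8 lower, while over all tested features 6.5% were higher and 12.4% lower. All 11 had the same sign in each genotype. LS0185 showed the largest rise of these, with ratios of 1.90 for FLIP94-508C, 2.70 for ICC3996 and 2.41 for Lasseter. The mean was 2.34 (SE 0.42, 5.05-fold, adjusted p = 0.00361, limma), and it was the only LS feature at least 2-fold higher in all 3 genotypes, where 0.89% of all features were. LS0861 had a smaller rise, with ratios of 0.66, 1.28 and 0.47 and a mean of 0.80 (SE 0.21, adjusted p = 0.0202, limma).

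LS0342 fell evenly at 27 h of ACC, with ratios of -1.45 for FLIP94-508C, -2.45 for ICC3996 and -2.07 for Lasseter. The mean was -1.99 (SE 0.26, adjusted p = 0.00107, limma). In the other 12 samples with a value LS0342 lay between -0.35 and 1.24. LS0263 had ratios of -3.63, -0.091 and -2.47, a mean of -2.06 (SE 0.57, adjusted p = 0.0234, limma). Its ICC3996 value was near control here, while after 27 h of SA ICC3996 was the lowest genotype.

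In all, 5 of the 100 LS features measured in all 3 genotypes at 27 h of ACC were at least 2-fold lower in each (5.00%), where 3.56% of all such features were and 15 of the 462 CA and U features. None of the 5 was among the complete LS features, while 6 of 377 complete CA and U features met the rule. LS0251, singled out after its values were seen, had the lowest mean of the 5, at -2.53.

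The count of 11 at 27 h of ACC was 4 without the ICC3996 sample and 6 without the FLIP94-508C sample, and it was 0 when samples were scaled to equal spread. LS0861 passed in none of the fits that left out a sample (adjusted p between 0.0534 and 0.204, limma), and LS0263 did not pass without FLIP94-508C (adjusted p = 0.226, limma) or Lasseter (adjusted p = 0.102, limma). LS0185 and LS0342 passed without each of the 3 samples.

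Between 3 h and 27 h of ACC, 1 LS feature changed, LS0185, which was also the only one among all 523 tested (0.191%). At 3 h it had ratios of -3.12 for FLIP94-508C, 0.39 for ICC3996 and -1.43 for Lasseter, and all genotypes lay higher at 27 h than at 3 h. The mean difference was 3.72 (SE 0.60, adjusted p = 0.0153, limma). Without the 3 h Lasseter sample the adjusted p was 0.130 and without the 27 h samples of FLIP94-508C or ICC3996 it was 0.0672 and 0.136 (limma). The count was 5 without the 3 h FLIP94-508C sample, 6 without the 3 h ICC3996 sample and 2 without the genotype term. The largest fall between the times among tested LS features with values in all 6 samples and the same sign in all genotypes was that of LS1003, -1.37, which did not pass (adjusted p = 0.394, limma).

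LS0185 was also above control at both times of SA, with 0.50, 0.63 and 0.52 at 3 h and 1.80, 0.93 and 2.57 at 27 h. Its 27 h mean under SA was 1.77 (SE 0.42, adjusted p = 0.0155, limma). With MeJA it was -0.56, -0.69 and -0.20 at 27 h, below all its values at 27 h of the other compounds. A moderated F test of whether the time change differed between the compounds gave 0 LS features past the threshold, where 0.191% of all tested features passed. At an unadjusted p under 0.05 it gave 8 LS features (9.09%, against 9.18% of all tested features), and the lowest adjusted p was that of LS0185, 0.136 (limma).

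The compounds were compared over both times, and 3 pairs were tested with p-values adjusted over the 523 features within each pair. The labels do not say whether compounds shared untreated control plants. SA and ACC differed for 2 LS features, both higher with SA, where 3.63% of all tested features passed and 1.72% were higher with SA. LS0341 had ratios of 2.18, 0.67, 1.76, 0.96, 0.88 and 1.87 with SA, in the order FLIP94-508C, ICC3996 and Lasseter at 3 h and then at 27 h. With ACC it had -1.24, 0.50, -0.91, -0.82, -0.80 and -0.34, and the groups did not overlap. The difference was 1.99 (SE 0.43, adjusted p = 0.0312, limma). LS0342 differed by 1.69 (SE 0.31, adjusted p = 0.0235, limma), with SA values from 0.39 to 1.24 and ACC values from -2.45 to 0.31. It had no value for ICC3996 at 3 h of SA or for FLIP94-508C at 3 h of ACC. Its ACC values were 0.31 and -0.35 at 3 h and lay between -2.45 and -1.45 at 27 h, so this difference includes the 27 h fall given above.

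In the other direction, the largest difference among tested LS features with all values and the same sign in all genotypes was that of LS0160, -0.73, which did not pass (adjusted p = 0.155, limma). Both calls were lost in several fits without 1 sample, LS0341 without the SA samples of Lasseter (adjusted p = 0.0732 at 3 h and 0.0769 at 27 h), the 3 h SA sample of FLIP94-508C (0.0550), the ACC samples of FLIP94-508C (0.0676 and 0.0618), the 3 h ACC sample of Lasseter (0.0875) or the 27 h ACC sample of ICC3996 (0.0695, all limma). LS0342 was lost without the SA samples of Lasseter (adjusted p = 0.0852 and 0.0620), the 3 h ACC sample of Lasseter (0.0915) or the 27 h ACC sample of ICC3996 (0.0610, all limma), while 17 LS features passed without the 3 h ACC sample of ICC3996.

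SA and MeJA differed for 0 LS features by limma, where 0.574% of all tested features passed, with 11 at an unadjusted p under 0.05 (12.5%, against 14% of all tested features) and 8 by the methods' t-test (all features: 9.37%). For a pair of compounds this t-test took the differences of a genotype at 3 h and at 27 h as separate values. It therefore treated the times of 1 genotype as replicates. The largest differences among tested LS features whose sign was shared by all genotypes were 2.06 for LS0997 (adjusted p = 0.252, limma) and -2.06 for LS1003 (SE 0.53, adjusted p = 0.0778, limma). LS1003 had no SA value for ICC3996 at 3 h or for FLIP94-508C at 27 h, so in these genotypes its sign rests on 1 time of SA. Without the 3 h SA sample of FLIP94-508C LS1003 passed (adjusted p = 0.0208, limma). The value of LS0997 rested in part on a ratio of -5.71 in FLIP94-508C at 3 h of MeJA, while its other MeJA values ran from -1.19 to 0.43.

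MeJA and ACC differed for 0 LS features by limma, where 0.382% of all tested features passed, with 12 at an unadjusted p under 0.05 (13.6%, against 16.6% of all tested features) and 2 by the methods' t-test (all features: 9.56%). The largest differences among tested LS features whose sign was shared by all genotypes were 1.56 for LS0001 (adjusted p = 0.129, limma) and -0.90 for LS0493 (adjusted p = 0.207, limma). Without the 3 h ACC sample of ICC3996, 13 LS features passed, LS0001 (adjusted p = 0.0142, limma) and LS0493 (adjusted p = 0.0303, limma) among them.

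No LS feature differed between genotypes over the 6 groups by limma, and 0% of all tested features did in any of the 3 pairs. At an unadjusted p under 0.05 limma gave 1 LS feature between ICC3996 and Lasseter, 0 between FLIP94-508C and Lasseter and 2 between ICC3996 and FLIP94-508C (all features: 2.49%, 6.88% and 1.15%). The methods' t-test, which here took the differences in the 6 groups of compound and time as replicates, gave 2, 3 and 1 (all features: 2.1%, 6.5% and 0.958%). The largest differences among tested LS features with values in all 6 groups and the same sign in at least 5 were 0.52 for LS0975 and -0.59 for LS0413 in the first pair (adjusted p = 0.866 for both, limma). In the second pair they were 0.61 for LS0148 (adjusted p = 0.565, limma) and -0.76 for LS0451 (adjusted p = 0.618, limma). In the last pair they were 1.13 for LS0001 and -0.076 for LS0105 (adjusted p = 0.987 for both, limma).

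Over the 18 samples, 40 LS features were at least 2-fold higher than control in some sample and 99 at least 2-fold lower, with 25 counted in both. These were 25.6% and 63.5% of the class, against 25% and 63.1% of all features. Another 37 had values and were never past 2-fold. Among complete LS features, LS0185 was at least 2-fold higher in 5 samples and LS0341 in 4. LS0001 was at least 2-fold lower in 7 samples, with values from -4.59 to 0.66, and LS0616 in 6, with values from -1.96 to 0.94. The steadiest were LS0433, with values from -0.61 to 0.46 (SD 0.26, n = 18 samples), and LS0675, from -0.64 to 0.22 (SD 0.28, n = 18 samples). For LS0433 and LS0675 the 18 samples are different treatments, so these SDs include any response.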

How the data were processed

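The data are ratios from a 2-colour cDNA array for 18 samples. Per the series' design text and the labels, the authors scanned 54 slides, quantified the spots with ImaGene, subtracted the local background, omitted flagged spots, applied Lowess normalisation, took a shifted log2 of the ratio, combined duplicate spots and averaged 3 biological replications with dye swaps. The deposited values are therefore log2 ratios. The size of the shift is unknown here, and the direction (treated over control) is likely but not stated for the values. All 18 columns were mapped to samples by the labels.

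LS (156), CA (117) and U (442) features were told apart by identifier, and 12 rows of control spots were left out. Features with at least 2 of 3 values in each of the 6 groups (523 of 715) entered a limma fit (version 3.58.1, R 4.3.3) of 6 group means plus genotype, with 10 residual degrees of freedom. The genotype term is a replicate block, since the same 3 lines were sampled in every group, and the genotype label gives the pairing. All p-values are two-sided and adjusted by Benjamini-Hochberg over all features tested. Where a feature had no value in a sample, the fit left out that sample for that feature. The fit was tried on simulated data.

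For each of 15 comparisons up to 2 LS features in each direction were named, those with the largest change among tested features that passed and had the same sign in all genotypes, or, where none passed, the largest among tested features with values in all samples and that sign. For a pair of compounds, a value at either time was enough for each compound and genotype. The LS features measured past 2-fold in the most samples and those with the smallest SD were also named. The members and lists were chosen with earlier results of these data known. Alternatives left out the genotype term, centred or scaled the samples, weighted them, changed the filter, used the methods' t-test, or left out single samples and genotypes. Arrays give no read depth, and their number limits the precision.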

Additional observations from a re-analysis of the deposited data

Results flagged for a closer look

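In 24 groups of samples, each searched for 1 sample far from the others, chance alone would mark about 1 group in 20. The share of measured LS features at least 2-fold higher than control was 11.5% in ICC3996 after 27 h of ACC, while in the other 5 ACC samples it lay between 1.22% and 3.36%. Over all features measured in this ICC3996 sample the share was 12.9%, so the high share was not particular to the LS features. In FLIP94-508C after 3 h of MeJA the LS share was 2.86%, while in the other 5 MeJA samples it lay between 0% and 0.901%. The 2.86% stands for only 3 of 105 LS features, and over all features the share was 0.506%.

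For LS0185 the sign of the change between 3 h and 27 h was opposite under different compounds in every genotype. Its change was 1.22 ± 0.88 (SD, n = 3 genotypes) with SA and -0.78 ± 0.76 (SD, n = 3 genotypes) with MeJA, so that SA and MeJA differed by 2.00. With ACC it was 3.72 ± 1.36 (SD, n = 3 genotypes), and MeJA minus ACC was -4.50. The difference was not tested for either pair of compounds. The MeJA changes of LS0185 ran from -1.58 to -0.057. In FLIP94-508C it was nearly the same at both times of MeJA, -0.50 at 3 h and -0.56 at 27 h. The joint F test over the 3 compounds did not pass (adjusted p = 0.136, limma).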

How the results depend on the processing

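The counts of LS features that passed limma depended on the filter and the scaling, and the cause was not tested beyond the number of features each filter admits. Without the replicate block the count was 3 at 3 h of SA and 2 for the time change under ACC, and leaving the block out moved no other count by over 1.5 times. With sample medians subtracted it was 2 at 3 h of SA and 2 at 3 h of ACC. With equal spread it was 2 at 3 h of SA, 4 at 3 h and 4 at 27 h of MeJA, 0 at 27 h of ACC, 1 for the time change under SA, 0 for that under ACC, 0 for SA minus ACC and 1 for SA minus MeJA. With sample weights it was 22 at 27 h of SA, 2 for the time change under ACC and 4 for SA minus MeJA. Among complete features it was 0 and 3 at 3 h and 27 h of SA, 3 and 7 at 3 h and 27 h of ACC, 0 for the time change under SA and 1 for SA minus ACC. With no filter it was 5 and 29 for SA, 3 and 21 for ACC, 8 for the time change under SA and 1 for MeJA minus ACC. With no filter 21.0% of the 138 LS features tested at 27 h of SA passed, against 18.5% of all features. Of these LS features 11 were higher and 18 lower, while in the reported fit 7 were higher and 4 lower. The methods' t-test gave 0 for every comparison after adjustment.

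Fits without 1 sample or genotype gave counts from 0 to 4 at 3 h of SA, from 1 to 9 at 27 h of SA, from 0 to 22 at 3 h of ACC (19 without all ICC3996 samples) and from 4 to 11 at 27 h of ACC. They gave 0 to 5 for the time change under SA, 0 to 6 for that under ACC, 0 to 17 for SA minus ACC, 0 to 2 for SA minus MeJA and 0 to 13 for MeJA minus ACC, and 0 for the other comparisons.

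Among complete features the mean LS difference in the share past 2-fold turned from 4.59 to -0.20 percentage points, and that in the median ratio from -0.080 to 0.025. Complete features, an alternative chosen after seeing the data, gave 0 LS features 2-fold higher in all 3 genotypes at 27 h of SA and 0 lower at 27 h of ACC. The difference of LS0105 between ICC3996 and FLIP94-508C turned from -0.076 to 0.032 without either of their 3 h MeJA samples, in a range from -0.35 to 0.032 over fits without 1 sample. Of the other fits for single named features, 481 kept direction and side of the threshold, 80 kept the direction but no longer passed and 18 passed where the reported fit had not. The 481 include features far from passing in the reported fit, such as LS0142 at 3 h of MeJA, so they do not measure how firm the calls are. Among the calls at 27 h of ACC, LS0861 was kept in 0 of 6 fits without a sample or genotype and LS0342 in 6 of 6.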

Other observations

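LS features were also set against each other over the samples, a comparison chosen after the data had been seen. In all, 94 LS features had a value in at least 15 samples, and pairs with at least 15 samples in common were compared. A correlation over 0.9 was found for 29 of 4248 LS pairs (0.683%), 221 of 96534 pairs of CA and U features (0.229%) and 18 of 40752 mixed pairs (0.0442%). The points of such a correlation share slides, so it is a description with no p. LS0064 and LS0173 had the highest value (r = 0.996 over 18 samples), with a median absolute difference of 0.025 and a largest difference of 0.18 on the log2 scale. LS0276 and LS0433 came next (r = 0.979 over 18 samples). LS0688, the second largest rise at 27 h of SA, was most like LS0759 (r = 0.911 over 16 samples). Whether such pairs are spots of the same or of overlapping sequences was not tested, since no sequences were at hand. Each member of such a pair was counted singly in the counts and shares above.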
